A study of Rattus norvegicus with 8 samples.

Results

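Genes of the switch between AMPK and mTORC1, 10 in all, were followed in primary oligodendrocyte precursor cells, the dividing glial cells that later make myelin, with and without oxygen glucose deprivation (OGD). They were chosen by symbol: Ddit4, the AMPK subunits Prkaa1, Prkaa2, Prkab1 and Prkab2, the mTORC1 genes Mtor, Rptor and Deptor, and the TSC genes Tsc1 and Tsc2. All 10 had a single row among the 32662 of the expression table. Cells came from the cerebral cortex of Sprague Dawley rats aged 1 to 2 days. They were taken from mixed glia grown in 20% serum as the cells that did not adhere, and were then kept for 4 to 5 days with PDGF and FGF (10 ng/ml each), 2 mM glutamine, 2% B27 and 1% antibiotic. The control group had 4 samples and the OGD group 4 samples held for 6 h without oxygen and glucose, a culture model of ischaemia. The control samples are called that by title and treatment label only, since their protocol text repeats that of the OGD samples. The labels name no genotype or drug. The labels do not say whether the samples were separate cultures, and the spread on which the p-values rest may therefore be technical.

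AMPK is a kinase of an α, a β and a γ subunit that is switched on when cellular energy falls and that then slows growth. mTORC1, built on the kinase Mtor and its scaffold Rptor, drives protein synthesis when nutrients, growth factors and energy suffice, and in the oligodendrocyte lineage it is known for promoting differentiation and myelination. AMPK restrains mTORC1 by phosphorylating Tsc2 and Rptor, and Ddit4 (REDD1), a protein made in low oxygen and other stresses, restrains it by way of the TSC complex. Only RNA was measured here, not protein or kinase activity.

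Of the 10 genes, 6 rose in OGD (Ddit4, Prkaa1, Prkab2, Tsc1, Tsc2 and Deptor), 1 fell (Mtor) and 3 did not pass the test (Prkaa2, Prkab1 and Rptor), tested on log2(FPKM + 1) by limma and adjusted by Benjamini and Hochberg's method over all 11149 genes tested, with a threshold of 0.05. FPKM are fragment counts scaled by gene length and library total. The background was high, since 49.5% of all tested genes passed, 22.7% rising and 26.8% falling. Every OGD library lay above every control library for 5 of the 10, a pattern seen in 20.7% of tested genes, and for 0 did every OGD library lie below, against 24.1% (44.7% in either direction). Deptor, part of both the 6 and the 5, reached 1 FPKM in all 4 OGD but only 2 control libraries. It thus entered the test by way of OGD, where it was higher. With any single library left out, 4 to 7 of the 10 rose and 0 to 1 fell. The median change of the 10 was 0.41 on the log2 scale, beside -0.04 over all tested genes. These 10 were not drawn at random, so the counts describe them and test nothing about the set.

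The promoter sequences of 3 of these genes are shown because these genes responded differently, Ddit4 with a clear rise, Tsc2 with a small one and Mtor with a fall. Each is the 250 bases before the RefSeq transcription start in build GRCr8, 5′ to 3′ on the strand of the gene, and capitals mark ACGTG or GCGTG on either strand, the core letters bound by hypoxia-inducible factors.
Ddit4, chr20:28437038-28437287, minus strand: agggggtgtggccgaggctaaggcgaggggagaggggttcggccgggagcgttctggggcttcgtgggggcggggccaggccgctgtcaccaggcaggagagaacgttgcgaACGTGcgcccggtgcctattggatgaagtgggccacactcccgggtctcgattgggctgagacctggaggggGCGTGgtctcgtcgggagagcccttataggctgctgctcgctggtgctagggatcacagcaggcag
Tsc2, chr10:14160240-14160489, minus strand: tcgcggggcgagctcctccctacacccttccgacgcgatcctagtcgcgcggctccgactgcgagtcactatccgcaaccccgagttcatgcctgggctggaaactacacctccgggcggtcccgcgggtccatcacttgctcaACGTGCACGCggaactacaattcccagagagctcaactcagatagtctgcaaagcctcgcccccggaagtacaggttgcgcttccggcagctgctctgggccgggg
Mtor, chr5:164167735-164167984, plus strand: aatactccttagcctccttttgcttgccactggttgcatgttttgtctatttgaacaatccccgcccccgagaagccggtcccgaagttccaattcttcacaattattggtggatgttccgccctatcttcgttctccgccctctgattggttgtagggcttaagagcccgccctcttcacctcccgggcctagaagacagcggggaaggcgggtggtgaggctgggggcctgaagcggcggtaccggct
In Ddit4 the 2 matches stood at -138 to -134 and -66 to -62 from the start, and in Tsc2 an ACGTG at -106 to -102 was followed directly by a GCGTG on the other strand. Mtor had 0 matches, and so had Prkaa1 and Tsc1, which both rose. Prkaa2 and Prkab1, which did not pass the test, held matches. Whether matches go with the changes was not tested. RefSeq gave a window for 8 of the 10 genes, and 5 of these held ACGTG or GCGTG on either strand (Ddit4, Prkaa2, Prkab1, Prkab2 and Tsc2), as did 36.7% of 33469 windows of the same length. ACGTG alone was found in Ddit4 and Tsc2, and in 16.6% of all windows. Neither the E-box CACGTG, which contains ACGTG (5.59% of all windows), nor TGATGNAA, an ATF4 and C/EBP element (3.4%), was in any of the 8. These are matches of letters in a window, not measured binding sites.

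Libraries differed in depth and mitochondrial share, with overlap between the groups. The shares of precursor, microglial and astrocyte markers did not overlap between control and OGD. Beside the marker calls below stand 22.7% of all tested genes rising and 26.8% falling. Fragment totals are unknown, but steps between low values gave relative depths of 1 to 1.11 in control and 0.816 to 1.18 in OGD, and the mitochondrial genome gave 25.1% to 27.9% of summed FPKM in control and 20.4% to 30.4% in OGD. Precursor markers were abundant in all libraries (0.477% to 0.525% of summed FPKM in control, 0.323% to 0.372% in OGD, with 6 of 8 lower), led by Olig1 (794.5 ± 41.4 FPKM in control, 356.5 ± 28.0 in OGD; SD, n = 4 each) and Ptprz1 (341.8 ± 42.8 and 270.6 ± 18.3). With quantile normalization Ptprz1 did not pass (-0.25, adjusted p = 0.104 by limma; range over 17 alternatives 0.00276 to 0.104). The other 2, Olig2 (297.2 ± 11.2 and 285.6 ± 25.7 FPKM) and Sox10 (233.7 ± 15.7 and 245.6 ± 21.9 FPKM), did not pass. Microglial markers made up 0.0408% to 0.0708% in control and 0.0145% to 0.0272% in OGD. Of the 12 matched, 11 were tested and 10 were lower, with C1qa at 60.0 ± 14.8 and 19.3 ± 7.02 FPKM and C1qc at 55.0 ± 13.4 and 17.3 ± 5.51 FPKM, and 0 of the 12 were at 0 in all libraries. Cx3cr1, P2ry12 and Ptprc entered the test through the control group, in which they were higher, as did Gfap among the astrocyte markers. Astrocyte markers (Slc1a3 and Sparcl1 the highest) made up 0.0281% to 0.0286% in control and 0.0267% to 0.0273% in OGD, with 1 of 5 tested lower (Gfap). Slc1a3 (63.4 ± 2.67 and 60.1 ± 2.49 FPKM) and Sparcl1 (57.3 ± 4.42 and 52.8 ± 2.05 FPKM) gave most of that share. Neither passed (limma, adjusted p = 0.313 and 0.197). Neuronal markers (Map2 and Tubb3 the highest) made up 0.0555% to 0.0723% in control and 0.0601% to 0.0762% in OGD, with 2 of 7 higher (Tubb3 and Syt1) and 3 lower (Syn1, Snap25 and Nefl). Vascular and stromal markers were near 0, with Kdr at 0.110 ± 0.0600 FPKM and Cdh5 at 0.0899 ± 0.0329 FPKM in control. The part of these marker differences in the results that follow was not tested, and in bulk RNA fewer cells of a type cannot be told apart from less RNA per cell.

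**Figure D1:**
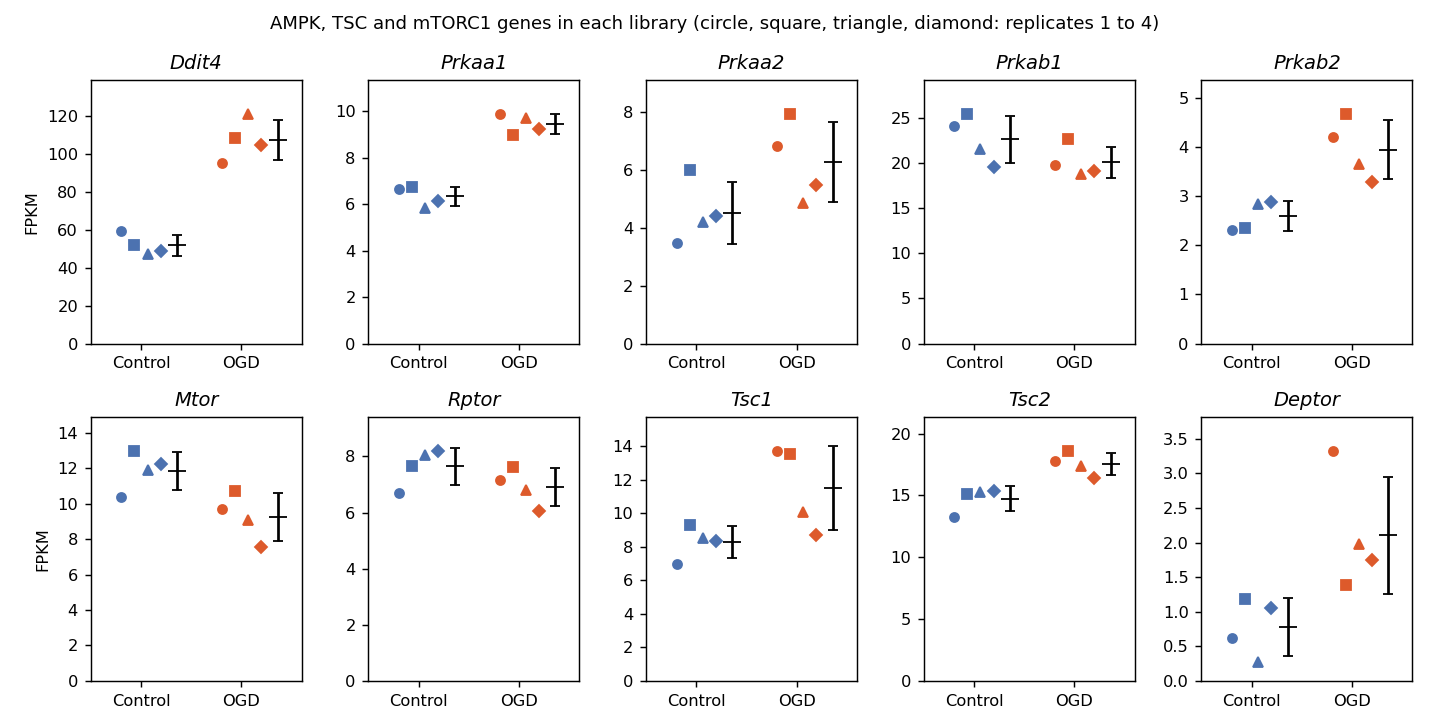
FPKM of each of the 10 genes in the 4 control (blue) and 4 OGD (orange) libraries, each panel with its own axis from 0. Symbols are replicates 1 to 4 and black bars the mean and SD. The 2 groups are apart for Ddit4, Prkaa1, Prkab2, Tsc2 and Deptor and overlap for the other 5.

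Ddit4 (ENSRNOG00000057078), the stress-induced inhibitor of mTORC1, had the largest change of the 10 on the log2(FPKM + 1) scale. With a pseudocount of 0.1 its change was 1.05 and that of Deptor, a low gene, was larger at 1.40. Its level was 59.4, 52.2, 47.0 and 48.6 FPKM in control replicates 1 to 4 and 95.4, 108.2, 120.9 and 104.4 FPKM in OGD replicates 1 to 4. The lowest OGD library stood well above the highest control library. The mean went from 51.8 ± 5.50 to 107.2 ± 10.6 FPKM (SD, n = 4 each), 2.07-fold, and the log2 change was 1.04 ± 0.09 (SE; limma, adjusted p = 9.22e-06). Only 1.78% of tested genes had a larger upward change. Ddit4 was also the most abundant of the 10 in both groups, with more than the next gene, Prkab1, in every library.

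Among the AMPK catalytic subunits, which carry the kinase domain, Prkaa1 (α1, ENSRNOG00000012799) rose. It measured 6.66, 6.72, 5.85 and 6.13 FPKM in the controls and 9.87, 8.98, 9.73 and 9.24 FPKM under OGD. The groups were far apart and each was tight, with coefficients of variation of 6.61% and 4.43%. The log2 change was 0.51 ± 0.08 (SE; limma, adjusted p = 0.000434), a rise of the mean from 6.34 ± 0.419 to 9.45 ± 0.418 FPKM. Prkaa2 (α2, ENSRNOG00000007706), the second catalytic subunit, measured 3.46, 5.97, 4.21 and 4.39 FPKM in the controls and 6.83, 7.92, 4.85 and 5.48 FPKM under OGD. Control replicate 2 lay above OGD replicates 3 and 4, so the groups overlapped. Its log2 change of 0.40 had a 95% interval of 0.04 to 0.76 and did not pass after adjustment (limma, adjusted p = 0.0605). Without control replicate 2 it passed at 0.52 (adjusted p = 0.0201), as it did without OGD replicate 3 at 0.50 (0.032) and with quantile normalization at 0.41 (0.0423; range over 17 alternatives 0.0201 to 0.156).

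Of the β subunits, the scaffolds that hold the complex together, the less abundant one rose. Prkab2 (β2, ENSRNOG00000018166) measured 2.31, 2.36, 2.84 and 2.88 FPKM in the controls and 4.20, 4.68, 3.65 and 3.29 FPKM under OGD. All OGD values exceeded all control values, by the least margin in OGD replicate 4. The log2 change was 0.46 ± 0.12 (SE; limma, adjusted p = 0.00857). Prkab1 (β1, ENSRNOG00000001142), the main β transcript, measured 24.1, 25.5, 21.6 and 19.6 FPKM in the controls and 19.8, 22.7, 18.8 and 19.2 FPKM under OGD. Its groups overlapped, and the log2 change of -0.16 (95% interval -0.37 to 0.04) did not pass (limma, adjusted p = 0.169).

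Because FPKM is scaled by gene length, the balance of paired subunits can be read within a library. Prkaa1 made up 65.8%, 52.9%, 58.2% and 58.3% of the α transcripts in control and 59.1%, 53.1%, 66.8% and 62.8% in OGD, with no separation of the groups (58.8% ± 5.29 and 60.4% ± 5.78, SD, n = 4 each). An exact permutation test, two-sided, gave p = 0.629, and 0.629 after adjustment for the 3 measures of balance. Prkab1 made up 91.2%, 91.5%, 88.4% and 87.2% of the β transcripts in control and 82.5%, 82.9%, 83.7% and 85.4% in OGD. The OGD libraries all lay below the controls, with means of 89.6% ± 2.14 and 83.6% ± 1.28 (SD, n = 4 each). The exact two-sided permutation p was 0.0286, the smallest that 4 against 4 allows, and did not pass adjustment over the 3 measures (adjusted p = 0.0857). A measure at this smallest p could not pass that adjustment unless another measure reached it too. The summed α level was 10.8 ± 1.25 FPKM in control and 15.7 ± 1.25 FPKM in OGD, while the summed β level was 25.3 ± 2.34 and 24.1 ± 2.31 FPKM. Of the γ subunits, which sense AMP, Prkag2 was at 8.14 ± 0.810 and 7.17 ± 0.529 FPKM and did not pass (limma, adjusted p = 0.183). Prkag3 was listed at 0 in all libraries. Prkag1 could not be matched to a row by symbol, so it was not analysed here.

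**Figure D2:**
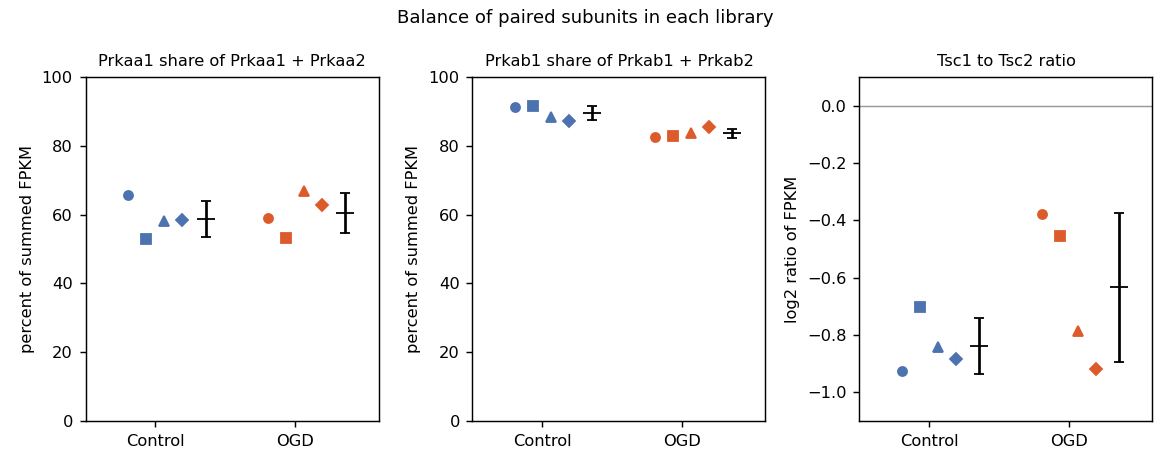
Share of Prkaa1 in the α transcripts and of Prkab1 in the β transcripts (percent of summed FPKM), and the log2 ratio of Tsc1 to Tsc2, in each library; bars are the mean and SD of 4 libraries. The β1 share is 87.2% or more in the control libraries and 85.4% or less in the OGD libraries, while the groups overlap in the other 2 panels.

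The TSC complex switches off Rheb, the GTPase that activates mTORC1. Tsc2 (ENSRNOG00000011375), its catalytic part, measured 13.2, 15.1, 15.2 and 15.4 FPKM in the controls and 17.8, 18.6, 17.4 and 16.4 FPKM under OGD. Control replicate 1 was well below its 3 fellows, and all OGD libraries were above all controls. The rise was small, 1.19-fold on the means, or 0.24 ± 0.07 on the log2 scale (SE; adjusted p = 0.0221 by limma). Tsc1 (ENSRNOG00000011470), the partner that stabilises Tsc2, measured 6.96, 9.29, 8.51 and 8.35 FPKM in the controls and 13.7, 13.5, 10.1 and 8.67 FPKM under OGD. OGD replicates 1 and 2 were high, while OGD replicate 4 lay within the control range. The log2 change was 0.41 ± 0.14 (SE; limma, adjusted p = 0.0315), and the log2 ratio of Tsc1 to Tsc2 went from -0.84 ± 0.10 to -0.63 ± 0.26 (SD, n = 4 each), with an exact permutation p = 0.229 (two-sided; 0.343 after adjustment for the 3 measures).

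Both TSC calls lay near the threshold. Tsc1 did not pass without control replicate 1 (0.34, adjusted p = 0.083), 3 (0.43, 0.0538) or 4 (0.42, 0.0581), or without OGD replicate 1 (0.33, 0.0898) or 2 (0.33, 0.0834; range over 17 alternatives 0.00526 to 0.0898), or with no filter (0.41, 0.0658), and Tsc2 did not pass without control replicate 1 (0.19, 0.0555) or OGD replicate 1 (0.23, 0.0514) or 2 (0.21, 0.0577; range 0.0167 to 0.0577). The span of Tsc2 overlaps Pkd1 in GRCr8 and that of Mtor overlaps Angptl7 and a pseudogene. The span of Deptor overlaps 3 genes, a pseudogene and small nuclear RNA genes. Since nothing says whether FPKM were estimated by strand, reads of such pairs may not have been told apart.

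Mtor (ENSRNOG00000009615), the kinase itself, was the only one of the 10 to fall. It measured 10.4, 13.0, 11.9 and 12.2 FPKM in the controls and 9.70, 10.7, 9.08 and 7.54 FPKM under OGD. Control replicate 1 lay below OGD replicate 2, so the groups overlapped at that point, and OGD replicate 4 was the lowest of all. The mean fell from 11.9 ± 1.09 to 9.26 ± 1.34 FPKM, and the log2 change was -0.33 ± 0.11 (SE; adjusted p = 0.0259 by limma). The call was lost without control replicate 2 (-0.29, adjusted p = 0.0705), 3 (-0.33, 0.0559) or 4 (-0.32, 0.0625), without OGD replicate 3 (-0.32, 0.0538) or 4 (-0.24, 0.0555), and after rescaling outside mitochondrially encoded genes (-0.30, 0.077; range over 17 alternatives 0.0125 to 0.077).

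Rptor (ENSRNOG00000003821), the subunit that recruits mTORC1 substrates, measured 6.71, 7.66, 8.04 and 8.18 FPKM in the controls and 7.15, 7.63, 6.79 and 6.04 FPKM under OGD. The groups overlapped, and the log2 change of -0.13 (95% interval -0.34 to 0.08) did not pass (limma, adjusted p = 0.277). Deptor (ENSRNOG00000004328), a protein that binds and inhibits mTOR, was the least abundant of the 10. It measured 0.616, 1.19, 0.277 and 1.06 FPKM in the controls and 3.32, 1.38, 1.98 and 1.74 FPKM under OGD. All OGD libraries lay above all controls, with OGD replicate 1 far above the rest. The log2 change was 0.79 ± 0.22 (SE; limma, adjusted p = 0.0111), which was 1.40 with a pseudocount of 0.1, and the ratio of the means was 2.68 between levels of 0.786 ± 0.419 and 2.11 ± 0.844 FPKM. Deptor reached 1 FPKM in all 4 OGD but only 2 control libraries, so it entered the test by way of the group in which it was higher.

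**Figure D3:**
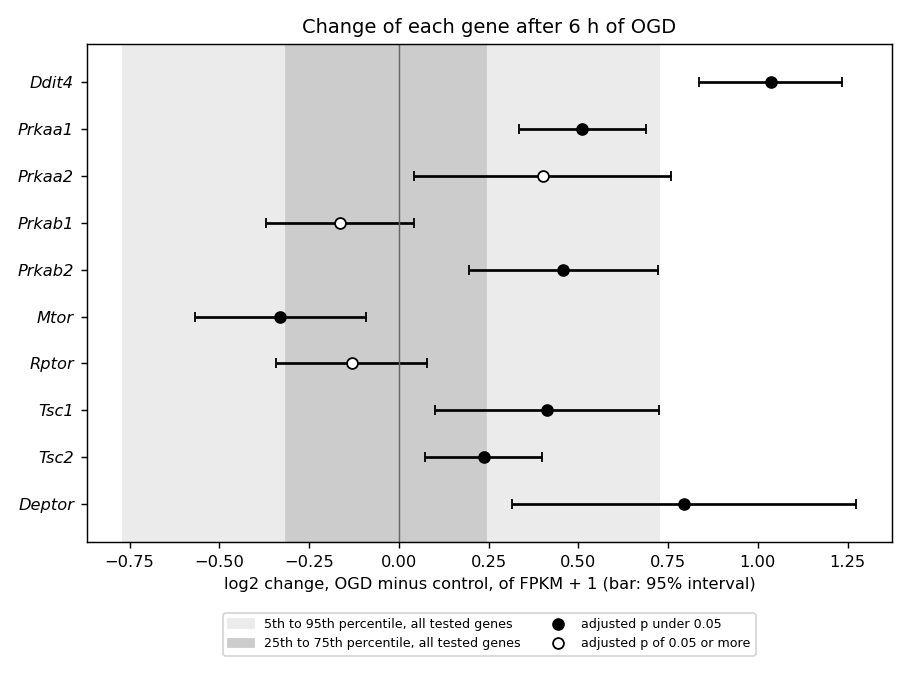
The log2 change in OGD of FPKM + 1 for each gene with its 95% interval (limma), filled where the adjusted p was under 0.05. Ddit4 (1.04) and Deptor (0.79) lie beyond the 95th percentile of all tested genes (0.72), and Mtor (-0.33) is the one filled point left of 0.

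In order of level, which FPKM allows between genes, the control libraries ran Ddit4, Prkab1, Tsc2, Mtor, Tsc1, Rptor, Prkaa1, Prkaa2, Prkab2 and Deptor. Neighbours in that order did not overlap except Tsc1 with Rptor, Rptor with Prkaa1 and Prkaa1 with Prkaa2. In OGD the order was Ddit4, Prkab1, Tsc2, Tsc1, Prkaa1, Mtor, Rptor, Prkaa2, Prkab2 and Deptor. Mtor thus went from the fourth place to the sixth, while Tsc1 and Prkaa1 each moved ahead of it. The ranges of Tsc1, Prkaa1, Mtor, Rptor and Prkaa2 each overlapped the next in this order, as did those of Prkab2 and Deptor, except that Prkaa2 lay wholly above Prkab2.

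The OGD libraries were not alike. In 7 of the 10 genes both OGD replicates 1 and 2 were above both OGD replicates 3 and 4 (Prkaa2, Prkab1, Prkab2, Mtor, Rptor, Tsc1 and Tsc2), and in 0 were both below. Over all tested genes these shares were 21.4% and 25.9%. Replicates 1 and 2 were the shallower libraries (relative depth 0.928 and 0.816, against 1.14 and 1.18) and had more mitochondrially encoded RNA (29.6% and 30.4% of summed FPKM, against 23.4% and 20.4%). Ddit4, Prkaa1 and Deptor did not follow this pattern. Among the controls, replicate 1 was the lowest for 6 of the 10 genes and replicate 2 the highest for 6. The pattern was noticed after the values were seen, and the part of depth or mitochondrial share in it was not tested.

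The genes closest to Ddit4 in profile were Zfp358, Rpap2, Dpf3, Aldoa and Nampt. Likeness was the root mean square difference of log2(FPKM + 1) over the 8 libraries, each gene centred on its own mean, and it was 0.06 for Zfp358, a zinc finger gene, and 0.09 to 0.10 for the others. Zfp358 measured 23.0, 19.8, 18.8 and 19.6 FPKM in the controls and 40.8, 43.1, 45.5 and 43.5 FPKM under OGD. As in Ddit4, control replicate 1 was its highest control library and OGD replicate 3 its highest OGD library. Zfp358 was chosen by likeness over these same 8 libraries, so this is no separate evidence. Aldoa, a glycolytic aldolase, went from 155.0 ± 10.8 to 345.4 ± 24.1 FPKM, and Nampt, the enzyme of NAD salvage, from 14.2 ± 1.30 to 30.3 ± 2.68 FPKM. Of the other 9 genes followed here, Prkaa1 was the nearest to Ddit4, at 0.29 and rank 650 of 11139.

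**Figure D4:**
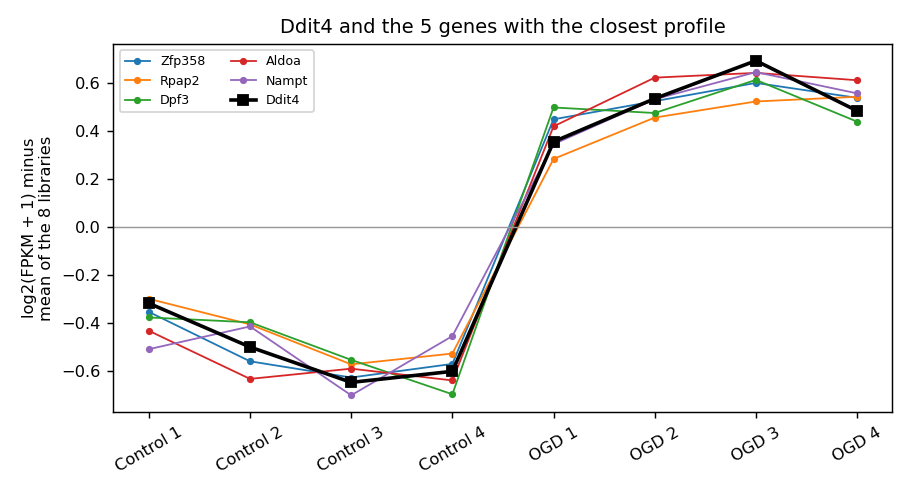
log2(FPKM + 1) of Ddit4 (black) and of the 5 genes closest to it in each of the 8 libraries, each centred on its own mean; lines only join the points of a gene. All 6 lie below their mean in the 4 control libraries and above it in the 4 OGD libraries, and were chosen for this likeness.

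The wider network was read from 11 lists of 118 genes in all, 115 of them with a row and 104 tested. Of these, 41 rose and 23 fell (background 22.7% and 26.8%), with a median log2 change of 0.13. Upstream of AMPK, 1 of 7 rose and 2 fell, beside 22.7% and 26.8% of all tested genes. These 3 belong to the assembly that activates the kinase Stk11 (LKB1), as do most genes of this list. Stradb rose from 13.5 ± 1.67 to 20.1 ± 1.37 FPKM, while its relative Strada fell from 15.0 ± 1.09 to 8.68 ± 1.81 FPKM and Cab39l from 18.8 ± 2.43 to 13.7 ± 1.16 FPKM. Stk11 itself was at 18.1 ± 1.10 and 20.3 ± 1.29 FPKM and did not pass (limma, adjusted p = 0.0965). Cab39, the more abundant relative of Cab39l, was at 74.9 ± 3.59 and 82.9 ± 7.29 FPKM and did not pass (limma, adjusted p = 0.126). Of 11 kinases related to AMPK, 7 rose and 1 fell (median 0.38). Brsk1 and Brsk2, kinases of neuronal polarity, rose to 19.5 ± 1.14 FPKM (10.3 ± 0.748 in control) and 18.5 ± 3.52 FPKM (8.90 ± 1.08 in control), and the falling one was Melk, a kinase of dividing cells, by 0.46 on the log2 scale.

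Of 11 genes of proteins that AMPK phosphorylates, 4 rose and 3 fell (median 0.24; all tested genes 22.7% and 26.8%). Pfkfb3, which makes the activator of glycolytic phosphofructokinase, rose from 5.48 ± 0.259 to 47.2 ± 7.07 FPKM, by 2.88 ± 0.10 on the log2 scale (SE; adjusted p = 2.31e-08 by limma). Tbc1d1, a regulator of glucose transporter traffic, fell from 6.45 ± 0.412 to 1.92 ± 0.136 FPKM. Acaca, the acetyl-CoA carboxylase of fatty acid synthesis, fell by 0.39. The Acaca call was lost without control replicate 2 (-0.31, adjusted p = 0.0609), control 3 (-0.37, 0.0535) or OGD 3 (-0.37, 0.0509; range over 17 alternatives 0.00848 to 0.0614), and only 1 of the list fell without control replicate 2 or after rescaling outside mitochondrially encoded genes.

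Of 8 partners of mTOR, 2 rose and 3 fell (median -0.04), shares near those of all tested genes (22.7% and 26.8%). Akt1s1 (PRAS40), the other inhibitory subunit of mTORC1 beside Deptor, rose from 33.3 ± 1.96 to 40.2 ± 2.53 FPKM, and Telo2, which helps to assemble mTOR complexes, rose by 0.35 (0.31 and adjusted p = 0.0559 without OGD replicate 1, which left 1 riser; range over 17 alternatives 0.00233 to 0.0559). Prr5 and Mapkap1, subunits of mTORC2, fell by 0.93 and 0.30. Rheb, the target of the TSC complex, measured 100.9, 85.6, 84.5 and 80.6 FPKM in the controls and 75.2, 69.8, 79.3 and 74.5 FPKM under OGD. Its fall of 0.23 was lost without control replicate 1 (-0.16, adjusted p = 0.064 by limma), OGD replicate 1 (-0.23, 0.0551) or OGD replicate 2 (-0.20, 0.0759), leaving 0 of 3 called in its list. It was also lost with quantile normalization (-0.11, 0.164), without the limma trend (-0.23, 0.0522) and without control replicate 1 and OGD replicate 4 together (-0.16, 0.077). The adjusted p ranged over 17 alternatives from 0.0199 to 0.164.

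The amino acid branch brings mTORC1 to the lysosome. Of 12 Rag, Ragulator and folliculin genes, 4 rose and 4 fell (median -0.12): Flcn, the folliculin that acts on Rag GTPases, rose from 11.9 ± 0.694 to 19.2 ± 0.525 FPKM and Rragd from 7.70 ± 0.476 to 11.9 ± 1.23 FPKM, while the Ragulator subunits Lamtor1 and Lamtor4 fell to 36.7 ± 3.61 FPKM (55.5 ± 5.65 in control) and 45.4 ± 6.34 FPKM (69.1 ± 8.35 in control). Of 16 GATOR, KICSTOR and amino acid sensor genes, 9 rose and 3 fell (median 0.29). The background for both lists was 22.7% of all tested genes rising and 26.8% falling. Sesn2, a leucine-sensing, stress-induced inhibitor of mTORC1, measured 19.7, 20.3, 19.2 and 18.7 FPKM in the controls and 61.7, 57.2, 66.4 and 60.6 FPKM under OGD. Its groups were far apart, by 1.61 ± 0.06 on the log2 scale (SE; adjusted p = 3.19e-08 by limma). Lars1, the leucyl-tRNA synthetase, rose by 0.54, and Depdc5 and Sec13, of the GATOR complexes, fell by 0.33 and 0.36 (Sec13 -0.31 and adjusted p = 0.0534 without control replicate 1; range over 17 alternatives 0.0045 to 0.0534).

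**Figure D5:**
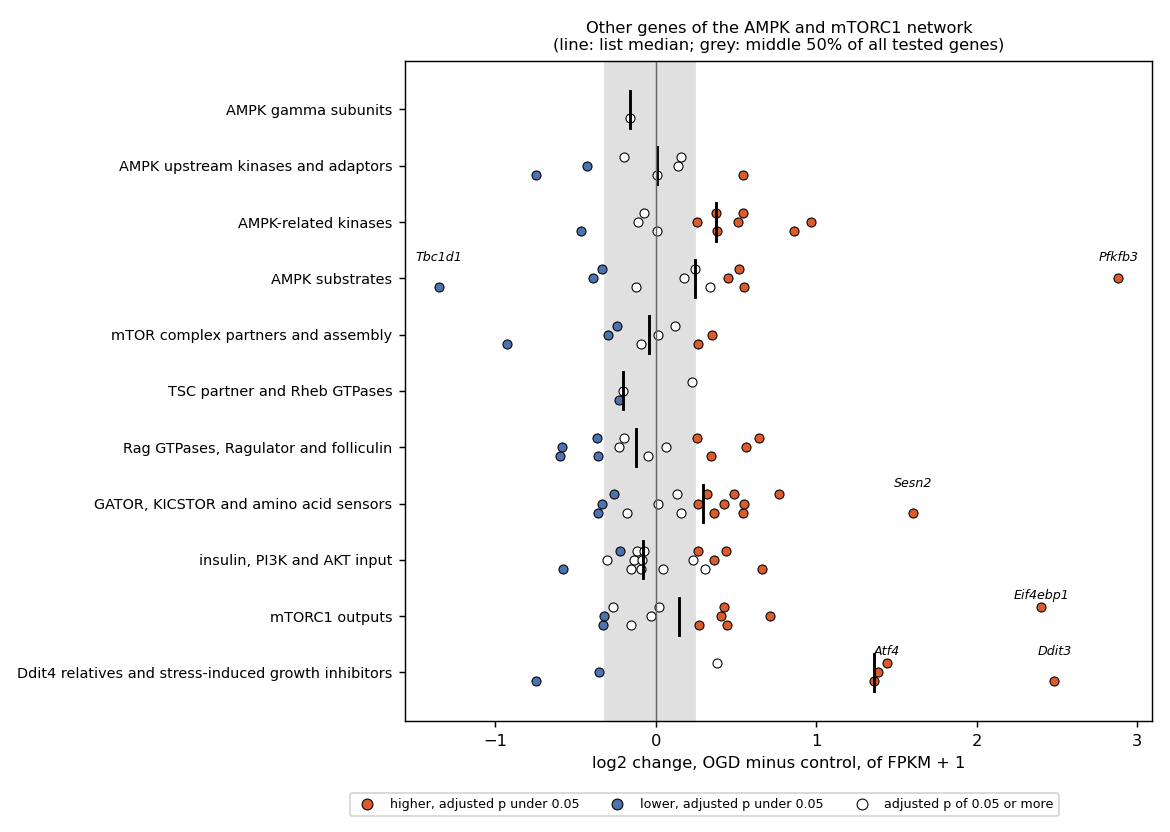
The log2 change in OGD of FPKM + 1 for the 104 tested genes of 11 network lists, coloured by call (limma). Most genes lie within 1 of 0. Pfkfb3 (2.88), Ddit3 (2.49), Eif4ebp1 (2.40) and Sesn2 (1.61) stand at the right and Tbc1d1 (-1.35) at the left.

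On the growth factor side, 4 of 16 insulin, PI3K and AKT genes rose and 2 fell (median -0.08). Over all tested genes 22.7% rose and 26.8% fell. Insr, the insulin receptor, rose from 4.73 ± 0.693 to 8.05 ± 0.575 FPKM. Grb10, an adaptor that damps insulin signalling, and Phlpp1, a phosphatase of AKT, fell by 0.58 and 0.22 (Phlpp1 -0.19 and adjusted p = 0.0605 after rescaling outside mitochondrially encoded genes; range over 17 alternatives 0.00851 to 0.0605).

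Among genes through which mTORC1 acts, 6 of 12 rose and 2 fell (median 0.14), beside 22.7% and 26.8% of all tested genes. Eif4ebp1, the repressor of cap-dependent translation that mTORC1 inactivates, measured 17.3, 14.0, 15.0 and 15.0 FPKM in the controls and 81.8, 75.4, 85.5 and 99.7 FPKM under OGD. The groups were far apart, by 2.40 ± 0.09 on the log2 scale (SE; adjusted p = 2.93e-08 by limma). Its relative Eif4ebp2 went the other way, from 98.1 ± 9.42 to 78.2 ± 5.59 FPKM, so that the 2 transcripts reached like levels in OGD. The fall of Eif4ebp2 (-0.32) was lost with quantile normalization (-0.20, adjusted p = 0.108; range over 17 alternatives 0.00136 to 0.108). Eif4b, an initiation factor, rose by 0.45 and Pdcd4, an inhibitor of initiation, fell by 0.33. Rps6, the classic phosphorylation readout of the pathway, was listed at 0 in all libraries, which may be a failed estimate.

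Of 7 tested genes of the list of Ddit4 relatives and stress-induced growth inhibitors, 4 rose and 2 fell (median 1.36). The shares over all tested genes were 22.7% and 26.8%. Atf4, the transcription factor of the integrated stress response, rose from 93.1 ± 4.51 to 255.2 ± 20.9 FPKM, and Ddit3 (CHOP) from 6.00 ± 0.334 to 38.4 ± 5.17 FPKM. Trib2 and Trib1, pseudokinases, fell by 0.36 and 0.75. Trib1 was under 1 FPKM in all 4 OGD libraries and Trib3 in all 4 controls, so each entered the test through 1 group, and leaving out any control replicate took Trib1 out of the test and left 1 faller. Ddit4l, the closest relative of Ddit4, was at 0.184 ± 0.144 and 0.0416 ± 0.0831 FPKM and was not tested.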

How the data were processed

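FPKM values (fragments scaled by gene length and library total) for 4 control and 4 OGD samples were deposited by the authors as a table of 32662 rows, per the file headers. Total RNA was sequenced after a strand-specific library kit, per the labels' protocols, and handled with Trimmomatic and FastQC on build rn6 (Rnor_6.0), per the submitters' processing notes. The sources used here do not give the aligner, the FPKM program or its strand setting.

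The 11149 genes that reached 1 FPKM in 4 or more libraries were compared on log2(FPKM + 1) in limma 3.58.1 (R 4.3.3) with a mean-variance trend and group as the only term. Adjusted p (Benjamini-Hochberg) under 0.05 was called. This fit was run on simulated data with independent normal noise for each gene, as the fit assumes. Differences between libraries in depth or mitochondrial share were not simulated. The pseudocount understates changes of low genes. Subunit shares were tested by exact permutation. Alternatives were quantile normalization, median-centring, rescaling outside mitochondrially encoded genes, a pseudocount of 0.1, no trend, a filter of 5 FPKM or none, a replicate block, and left-out libraries. Members and lists were chosen with earlier results of these data known. Named were all members and the 2 genes of smallest p in each direction per list (the 1 smallest where none passed). The 2 highest of each marker list and the 5 nearest to Ddit4 were named too. Stk11, Cab39, Ddit4l, Trib3, Prkag3 and Rps6 were named after their values were seen. So were the marker genes beyond the 2 highest of each list. Some genes that the rule names are not reported here. Of 118 list entries, 3 matched by an older symbol (GRCr8 RefSeq names) and 3 were unmatched.

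Relative depth came from values up to 0.5 FPKM, which stood in ratios of whole numbers within 0.01 on the log2 scale for 64.9% to 68.2% of genes. Promoters came from RefSeq (GRCr8), another build than the table's. Python 3.11.15 was used with pandas 2.3.3, scipy 1.17.1 and matplotlib 3.10.9.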

Additional observations from a re-analysis of the deposited data

Results flagged for a closer look

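Of 128 groups of 4 libraries examined (64 measures in each group), 3 held a library far from the other 3, where chance flags about 1 in 20 (6.4). Tsc2 in control replicate 1 was at 13.2 FPKM against 15.1 to 15.4 in the others, and the Tsc2 call did not hold without that library. C1qa, a microglial marker, was at 81.9 FPKM in control replicate 4 against 49.4 to 55.0. Aldoa was at 309 FPKM in OGD replicate 1 against 354 to 362.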

How the results depend on the processing

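Over 17 alternatives the 10 genes gave 168 values. None reversed, and 149 kept both direction and call. Ddit4 (0.98 to 1.11), Prkaa1 (0.48 to 0.57), Prkab2 (0.39 to 0.58) and Deptor (0.62 to 1.40) were called in every one run; Prkab2 and Deptor did not reach the filter of 5 FPKM. With single libraries left out, Prkaa2 ranged from 0.30 to 0.52, Mtor from -0.40 to -0.24, Tsc1 from 0.33 to 0.53 and Tsc2 from 0.19 to 0.27, with calls on both sides of the threshold, and of the 10 genes 4 to 7 rose and 0 to 1 fell; the cause was not tested. Prkaa2 passed with quantile normalization (0.41). Mtor did not pass after rescaling outside mitochondrially encoded genes (-0.30), which left 0 of the 10 falling, nor Tsc1 with no filter (0.41). Over all genes 4460 to 5535 were called, and in the network lists 35 to 42 rose and 17 to 24 fell. Of 825 values of 49 other genes picked by the naming rule 809 kept direction and call, and 1 reversed, Slc1a3 (0.002 with quantile normalization). The α1 share difference (1.63 percentage points) ranged from -0.47 to 4.07 with single libraries left out, and was -0.32 without control replicate 2 and -0.47 without OGD replicate 3. The β1 share difference stayed between -6.77 and -5.32 points, and those designs (least adjusted p 0.171), and the paired one (0.375), cannot reach the threshold. Same-numbered libraries did not pair: their deviations correlated at -0.222, 0.163, 0.011 and 0.090, and 1 of 4 controls correlated best with its own number. With the replicate block Prkaa2 passed at 0.40 (adjusted p = 0.0276), no other of the 10 changed its call, and 5509 genes were called against 5519. Fragment totals are unknown, so counting error could not be given, for Deptor (mean control level under 1 FPKM) among others.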
